A study of Homo sapiens with 10 samples.

Results

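The RNAs described here have a symbol that begins with LINC followed by digits, the naming prefix of long intergenic noncoding RNAs. They were expressed in at least 1 of 5 groups of human cells. LINC00461 was not included. A row was kept when its mean level reached 1 CPM (counts per 1000000 counts of the library) in at least 1 group. That held for 282 of 2144 such rows (13.2%); 1481 of the rows had a count above 0 in any library. Because measured levels chose the members, the group that expresses each of them is given as a description, without a test. Just inside the rule were LINC01563, LINC00836 and LINC01625, whose highest group means were 1.00, 1.01 and 1.02 CPM. Just outside were LINC02012, LINC00707 and LINC01119, at 0.998, 0.998 and 0.987 CPM.

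Long intergenic noncoding RNAs are transcribed by RNA polymerase II from their own loci, and most are spliced and polyadenylated but encode no known protein. Many are present in few cell types, and many lie near genes for developmental transcription factors. The LINC numbers are placeholder names, given to loci before a function is known, so most members have no established role.

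The cells were neural progenitor cells (NPCs) of the H1 line, which is an established line of human embryonic stem cells. There were 5 groups of 2 libraries each: the STAMBP knockout lines KO1 and KO2, the same kind of knockout cells with STAMBP added back (KO+STAMBP) or with CFLAR added (KO+CFLAR), and unedited cells (WT). STAMBP is a deubiquitinase of the endosomal sorting pathway, and CFLAR inhibits the activation of caspase-8. Which of the knockout lines was rescued is not in the labels, and neither is whether replicate libraries are separate cultures, so a p-value here reflects spread that may be technical. Library totals were 16495116 to 20832700 counts, and a count of 0 allows a level of up to 0.144 to 0.182 CPM, taking 3 counts as the floor.

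STAMBP itself was at 17.1 CPM on average in the knockout lines, 45.7 CPM in KO+STAMBP, 43.9 CPM in KO+CFLAR and 47.1 CPM in WT. CFLAR was at 234 CPM in the knockout lines, 34.2 CPM in KO+STAMBP, 32.1 CPM in KO+CFLAR and 33.6 CPM in WT. The libraries labelled KO+CFLAR therefore carried STAMBP near the WT level and no CFLAR above it, which goes against their label, and they are named below as the libraries labelled KO+CFLAR. Markers of other cell types moved with the groups. The summed level of 6 epithelial markers was 5994 to 6290 CPM in the knockout libraries, 54.0 to 64.7 CPM in the rescue libraries and 32.0 to 33.3 CPM in WT, and all 6 were higher in the knockout than in WT by the edgeR quasi-likelihood test. The summed level of 5 neuron markers was 452 to 472 CPM in the knockout, 3989 to 4097 CPM in the rescues and 2113 to 2144 CPM in WT. All 5 were lower in the knockout, where NEUROD6 was at 0.0128 CPM. The 7 progenitor markers summed to 2885 to 2942 CPM in the knockout, 2599 to 2683 CPM in the rescues and 4779 to 4996 CPM in WT; 5 were lower in the knockout, including SOX1 and FABP7, at 0.442 and 0.410 CPM there. The others were PAX6, at 192 CPM in the knockout and 189 CPM in WT and called higher by 0.20 ± 0.03 (edgeR, adjusted p = 5.6e-05), and VIM, at 2080 CPM in the knockout and 2247 CPM in WT and not called. NES was among the lower ones, at 608 CPM in the knockout and 805 CPM in WT. The 4 pluripotency markers summed to 18.7 to 22.3 CPM in the knockout, mostly LIN28A, and to at most 2.22 CPM elsewhere. Of the progenitor markers, SOX1 and FABP7 were thus nearly absent from the knockout libraries, which are labelled NPC, while PAX6, NES and VIM were present. In these bulk libraries, fewer cells that express an RNA and less of it per cell cannot be told apart, and the part of the marker changes in the results below was not tested.

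The members fell into patterns by the groups in which their mean reached 1 CPM. In all 5 groups, 116 members did so (41.1%). Another 55 (19.5%) did so in WT and both rescues but in neither knockout line, and 28 (9.93%) in both knockout lines alone. There were 17 (6.03%) in WT alone, 12 (4.26%) in both rescues alone, and 54 (19.1%) with another combination, of which 9 reached 1 CPM in KO1 alone and 7 in the libraries labelled KO+CFLAR alone. Over all 18898 rows of the series that reached 1 CPM in a group, 76.2% did so in all 5 groups, 7.13% in WT and both rescues, 5.44% in the knockout lines alone, 0.942% in WT alone and 1.5% in both rescues alone. No test was made between these shares. Of the members, 101 (35.8%) stayed under 2 CPM in every group, where a group mean easily falls on either side of 1 CPM.

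By group, 172 members reached 1 CPM in KO1, 166 in KO2, 202 in KO+STAMBP, 211 for the libraries labelled KO+CFLAR and 209 in WT. The highest mean of a member lay in KO1 for 56 members (19.9%), in KO2 for 34 (12.1%), in KO+STAMBP for 59 (20.9%), in the libraries labelled KO+CFLAR for 75 (26.6%) and in WT for 58 (20.6%). Over all rows that reached 1 CPM, the shares were 19.5% for KO1, 18.9% for KO2, 21.9% for KO+STAMBP, 18.5% for the libraries labelled KO+CFLAR and 21.2% for WT, with no test between them. The members' counts together made up 0.130% to 0.135% of each knockout library, 0.245% to 0.252% of each rescue library and 0.209% to 0.212% of each WT library. In CPM, the sums were 1348 and 1352 in KO1, 1296 and 1308 in KO2, 2474 and 2450 in KO+STAMBP, 2523 and 2501 for those labelled KO+CFLAR, and 2125 and 2087 in WT. These sums rest on library size alone. On that scale the median log2 change of all genes in the knockout against WT was -0.22. How many of all rows reached 1 CPM in each group is not given here, so nothing is read from the members' counts by group. The ranges of the sums in the 3 kinds of library did not overlap. A few RNAs carried most of this gap: without the 10 highest members, the sums were 970 to 1013 CPM in the knockout, 1329 to 1366 CPM in the rescues and 1262 to 1292 CPM in WT.

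**Figure D1:**
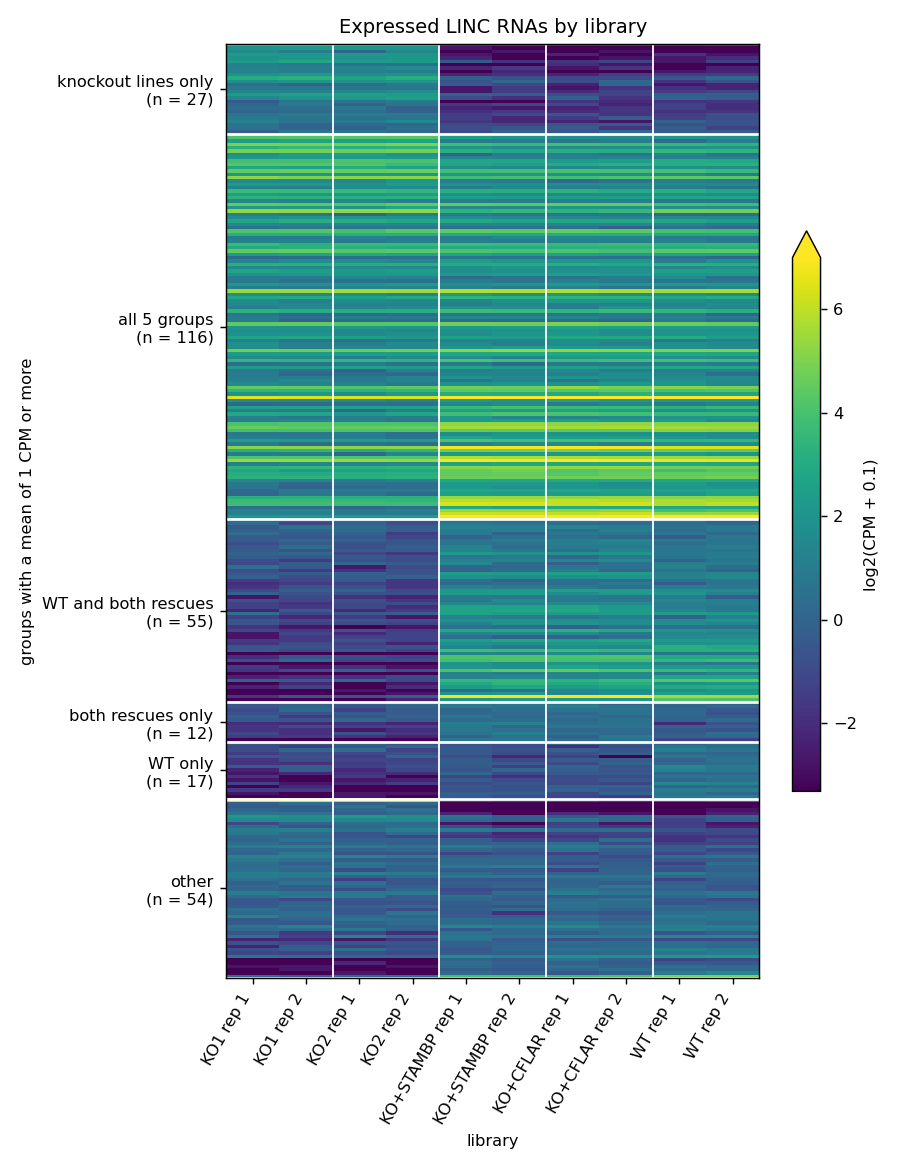
Level of each expressed LINC RNA (rows) in the 10 libraries (columns), coloured by log2(CPM + 0.1) and grouped by the groups in which the mean reached 1 CPM. The 281 rows leave out 1 knockout-only member on chromosome Y; the block of members shared by WT and both rescues is dark in all 4 knockout libraries, and the knockout-only block is dark in the other 6.

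The RNAs seen in the knockout lines alone were led by LINC01629 (chr14:76959638-76965802, plus strand, GENCODE release 29 on GRCh38). It was at 35.0 and 40.9 CPM in KO1, 35.1 and 35.4 CPM in KO2, 0.550 and 0.684 CPM in KO+STAMBP, 0.394 and 0.528 CPM in the libraries labelled KO+CFLAR, and 0.485 and 0.813 CPM in WT. Every knockout library was far above the other 6. Per kilobase of exons it was the second most abundant member, with a KO1 mean of 65.3 CPM per kb, after LINC01551 with 121 CPM per kb in its highest group. Both RNAs are on rows with a locus name of the MSTRG kind, which may merge transcripts. Their counts may therefore cover other bases than the exon length used. The exons of LINC01629 share bases with a gene on the other strand. No source used here gives the strand setting of the counting, so reads of the pair cannot be told apart.

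LINC00973 was the clearest case of presence against absence. It was at 3.78 and 4.76 CPM in KO1 and at 4.36 and 3.96 CPM in KO2. It had a single count in 1 KO+STAMBP library (0.0550 CPM) and 0 counts in the other KO+STAMBP library, in both libraries labelled KO+CFLAR and in both WT libraries. Against a floor of 3 counts over both WT libraries, it was at least 50.5-fold higher in the knockout. LINC01612 and LINC02533, the other 2 members of this pattern with no WT count, averaged 2.11 ± 0.891 and 1.66 ± 0.378 CPM in the knockout (SD, n = 4) and were at least 26.1-fold and 20.2-fold higher on the same floor.

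The promoter windows of LINC01629 and LINC00973 are shown because they belong to the knockout-only RNAs with the highest level and with no WT count. Each runs from 250 bases before to 50 after the start in RefSeq (GRCh38.p14), 5′ to 3′; the LINC01629 window is chr14:76959388-76959687, plus strand, and the LINC00973 window chr3:98914316-98914615, plus strand. For LINC00973 the RefSeq start lies far upstream of the start in GENCODE release 29. Capitals mark matches, on either strand, to the letters of an AP-1 site (TGANTCA), an E-box (CAGNTG), a TEAD site (GGAATG), a SOX site (ACAANG) or a POU octamer (ATGCAAAT).
LINC01629: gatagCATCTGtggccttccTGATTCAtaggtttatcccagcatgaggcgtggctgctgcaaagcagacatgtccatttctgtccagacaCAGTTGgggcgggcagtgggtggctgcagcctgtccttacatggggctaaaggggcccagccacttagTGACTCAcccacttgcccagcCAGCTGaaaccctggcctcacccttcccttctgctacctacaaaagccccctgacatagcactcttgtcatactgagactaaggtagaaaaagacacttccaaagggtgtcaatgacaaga
LINC00973: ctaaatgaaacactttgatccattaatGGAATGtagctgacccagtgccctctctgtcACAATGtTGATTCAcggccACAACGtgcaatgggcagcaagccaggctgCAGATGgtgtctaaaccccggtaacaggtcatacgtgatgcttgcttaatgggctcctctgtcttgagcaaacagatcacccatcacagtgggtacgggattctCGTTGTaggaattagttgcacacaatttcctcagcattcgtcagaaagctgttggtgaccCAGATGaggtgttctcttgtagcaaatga
The LINC01629 window holds 2 AP-1 and 3 E-box matches, and that of LINC00973 holds 1 AP-1, 1 TEAD, 2 E-box and 3 SOX matches.

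Among the other named knockout-only RNAs, LINC02605 averaged 8.16 ± 1.51 CPM in the knockout and 0.786 ± 0.254 CPM in WT. LINC01164 averaged 5.33 ± 1.19 CPM in the knockout and 0.183 ± 0.173 CPM in WT, and LINC01269 5.41 ± 0.422 CPM in the knockout and 0.745 ± 0.0244 CPM in WT (SD, n = 4 for the knockout and n = 2 for every other group, here and below). LINC01806 was at 3.90 to 4.55 CPM in the 4 knockout libraries, at 0 to 0.0985 CPM in the 4 rescue libraries and at 0.0508 and 0.182 CPM in WT. LINC02154, on chromosome X, was at 3.64 to 4.46 CPM in the knockout, at most 0.110 CPM in the rescues and at most 0.152 CPM in WT. LINC02802 was at 2.76 to 5.80 CPM in the knockout and 0.711 and 0.849 CPM in WT; it has a near-identical transcript at other loci, among them that of LSP1, and its value is uncertain for that reason. Over the 28 members of this pattern, the knockout mean ranged up to 36.6 CPM with a median of 2.11 CPM, and the WT mean had a median of 0.228 CPM and did not pass 0.786 CPM.

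LINC01036 had the highest knockout level of any member except LINC00641. This RNA, at chr1:187070700-187686622 on the plus strand, carries the name ERVMER61-1 in GENCODE, a name for an endogenous retroviral element. It was at 94.3 and 94.2 CPM in KO1, 80.1 and 76.2 CPM in KO2, 0.660 and 0.342 CPM in KO+STAMBP, 0.591 and 0.288 CPM in the libraries labelled KO+CFLAR, and 1.15 and 1.88 CPM in WT. WT passed 1 CPM as well, so the choice of members did not fix the comparison, and LINC01036 rose in the knockout by 5.96 ± 0.13 on the log2 scale (SE; edgeR, adjusted p = 5.69e-15). KO1 was above KO2 in every library, and the log2 difference of 0.25 ± 0.07 did not pass (edgeR, adjusted p = 0.571). LINC01139 averaged 3.92 ± 0.764 CPM in the knockout and 0.705 ± 0.225 CPM in WT, and fell by 2.05 ± 0.33 in KO+STAMBP against the knockout (edgeR, adjusted p = 5.68e-05). LINC00540 had no count in any rescue or WT library and averaged 0.981 ± 0.224 CPM in the knockout, just under the rule in KO2.

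LINC00511, an RNA of chr17:72290091-72640472 (minus strand) known from studies of epithelial tumours, was present in every group. It was at 39.6 and 40.2 CPM in KO1, 37.3 and 37.6 CPM in KO2, 10.1 and 11.7 CPM in KO+STAMBP, 10.2 and 11.6 CPM in the libraries labelled KO+CFLAR, and 28.0 and 27.4 CPM in WT. The knockout was highest and the rescues were lowest, with no overlap between the 3 kinds of library. It rose by 0.66 ± 0.07 in the knockout against WT (edgeR, adjusted p = 5.35e-07), and lay below WT by a log2 difference of -1.38 ± 0.09 in KO+STAMBP (edgeR, adjusted p = 3.27e-08) and of -1.37 ± 0.09 in the libraries labelled KO+CFLAR (edgeR, adjusted p = 2.81e-08).

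LINC01551 was the most abundant of the 282 members. It was at 4.14 and 4.64 CPM in KO1, 4.67 and 4.80 CPM in KO2, 325 and 321 CPM in KO+STAMBP, 345 and 327 CPM in the libraries labelled KO+CFLAR, and 255 and 240 CPM in WT. The rescues were above WT and the knockout far below both. It fell by 5.59 ± 0.05 in the knockout against WT (edgeR, adjusted p = 2.29e-18), and was above WT by 0.35 ± 0.04 in KO+STAMBP (edgeR, adjusted p = 1.22e-05) and by 0.42 ± 0.04 in the libraries labelled KO+CFLAR (edgeR, adjusted p = 1.91e-06).

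LINC01159 (chr2:104865497-104872595, minus strand) lies beside POU3F3, a POU-domain transcription factor of the developing cortex. This RNA was nearly absent from the knockout and came back in part in the rescues. It had 0 counts in both KO1 libraries and in KO2 replicate 1, and 2 counts (0.105 CPM) in KO2 replicate 2. It was at 3.96 and 5.19 CPM in KO+STAMBP, 4.53 and 4.32 CPM in the libraries labelled KO+CFLAR, and 17.6 and 17.2 CPM in WT. Both rescues stayed below WT, by log2 differences of -1.96 ± 0.20 in KO+STAMBP (edgeR, adjusted p = 3.96e-06) and -2.00 ± 0.19 in the libraries labelled KO+CFLAR (edgeR, adjusted p = 3.03e-06).

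LINC01551, the most abundant member, was far lower in the knockout, and both rescues restored LINC01159 in part. The promoter windows of LINC01551 and LINC01159 are shown for that reason, from the same RefSeq table, with the same marks. They are chr14:28772454-28772753 (plus strand) and chr2:104872546-104872845 (minus strand).
LINC01551: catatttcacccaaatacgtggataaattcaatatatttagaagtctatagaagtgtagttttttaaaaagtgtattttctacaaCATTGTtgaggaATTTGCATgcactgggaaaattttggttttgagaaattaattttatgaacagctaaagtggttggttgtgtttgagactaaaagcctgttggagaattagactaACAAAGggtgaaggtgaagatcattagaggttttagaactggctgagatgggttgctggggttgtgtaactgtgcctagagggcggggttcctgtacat
LINC01159: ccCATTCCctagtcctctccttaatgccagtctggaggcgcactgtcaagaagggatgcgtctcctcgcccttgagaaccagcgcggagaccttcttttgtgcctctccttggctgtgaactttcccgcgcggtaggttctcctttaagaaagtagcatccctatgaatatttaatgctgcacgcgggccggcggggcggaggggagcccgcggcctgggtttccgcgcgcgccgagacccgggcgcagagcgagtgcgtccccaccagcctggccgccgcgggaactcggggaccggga
The LINC01551 window holds 2 SOX matches and 1 POU octamer, with 2 CpG dinucleotides. The LINC01159 window holds 1 TEAD match and 29 CpG dinucleotides. The windows of LINC00391 and LINC00511 were also searched but are not printed. That of LINC00391, a member low in the knockout, holds 1 AP-1 match. That of LINC00511, a member highest in the knockout, holds 0 AP-1 and 2 E-box matches and 35 CpG dinucleotides. The AP-1 letters thus did not separate these windows by the level in the knockout.

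LINC00643 (chr14:62114353-62130962, plus strand) was the most abundant of the RNAs shared by WT and both rescues. It was at 0.204 and 0.542 CPM in KO1, 0.545 and 0.738 CPM in KO2, 109 and 112 CPM in KO+STAMBP, 119 and 120 CPM in the libraries labelled KO+CFLAR, and 46.7 and 48.5 CPM in WT. Its level in the rescues passed that of WT by 1.18 ± 0.06 in KO+STAMBP (edgeR, adjusted p = 1.99e-09) and 1.30 ± 0.06 in the libraries labelled KO+CFLAR (edgeR, adjusted p = 5.72e-10). LINC01122 averaged 0.359 ± 0.165 CPM in the knockout, 17.5 ± 0.393 CPM in KO+STAMBP, 16.9 ± 1.18 CPM in the libraries labelled KO+CFLAR and 7.5 ± 0.192 CPM in WT, a log2 difference of 1.19 ± 0.15 between KO+STAMBP and WT (edgeR, adjusted p = 3.15e-05). LINC00634 averaged 8.93 ± 1.88 CPM in KO+STAMBP and 3.88 ± 0.259 CPM in WT, 1.16 ± 0.24 apart on the log2 scale (edgeR, adjusted p = 0.00163), and had 3 counts over the 4 knockout libraries.

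Other RNAs of this pattern returned to a level nearer to WT or short of it. LINC01748 averaged 0.489 ± 0.298 CPM in the knockout, 19.2 ± 2.57 CPM in KO+STAMBP, 19.6 ± 2.51 CPM in the libraries labelled KO+CFLAR and 11.7 ± 1.42 CPM in WT; its difference between KO+STAMBP and WT, 0.69 ± 0.16 (edgeR, adjusted p = 0.0041), was no longer called without KO+STAMBP replicate 2 (0.54) or WT replicate 2 (0.57). LINC01896 averaged 0.720 ± 0.278 CPM in the knockout, 11.5 ± 0.00573 CPM in KO+STAMBP and 19.2 ± 0.857 CPM in WT, a difference of -0.78 ± 0.16 between KO+STAMBP and WT (edgeR, adjusted p = 0.00188). LINC00391, next to the neural transcription factor gene SOX21, was at 0.424 to 0.562 CPM in the 4 knockout libraries, 2.53 and 1.82 CPM in KO+STAMBP, 3.45 and 2.98 CPM in the libraries labelled KO+CFLAR, and 9.21 and 7.93 CPM in WT. It stayed below WT by a log2 difference of -2.00 ± 0.23 in KO+STAMBP (edgeR, adjusted p = 9.45e-06) and -1.44 ± 0.22 in the libraries labelled KO+CFLAR (edgeR, adjusted p = 0.000128). LINC02609 averaged 0.582 ± 0.337 CPM in the knockout, 15.6 ± 1.42 CPM in KO+STAMBP and 12.1 ± 1.19 CPM in WT, and its difference between KO+STAMBP and WT, 0.33 ± 0.16, did not pass (edgeR, adjusted p = 0.125), but was called, at the same size, when only the groups compared were fitted.

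A few RNAs had no count at all in the knockout. LINC00928 had 0 counts in all 4 knockout libraries and averaged 2.15 ± 0.303 CPM in KO+STAMBP, 2.67 ± 0.159 CPM in the libraries labelled KO+CFLAR and 1.97 ± 0.380 CPM in WT. On a floor of 3 counts over the 4 knockout libraries it was at least 47.5-fold lower in the knockout than in WT. LINC02488 likewise had 0 knockout counts, averaged 3.66 ± 0.345 CPM in KO+STAMBP and 1.79 ± 0.301 CPM in WT, and was at least 42.2-fold lower. LINC01351, which lies beside BRINP3, had 1 count over the 4 knockout libraries and averaged 3.89 ± 0.215 CPM in KO+STAMBP and 4.98 ± 0.503 CPM in WT.

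LINC01224 reached 1 CPM in KO2 but not in KO1 and so fell under no named pattern. It was at 1.18 and 0.662 CPM in KO1, 1.15 and 1.32 CPM in KO2, 14.8 and 14.9 CPM in KO+STAMBP, 12.8 and 17.4 CPM in the libraries labelled KO+CFLAR, and 30.7 and 30.3 CPM in WT. The rescues lay between the knockout and WT, below WT by log2 differences of -1.08 ± 0.14 in KO+STAMBP (edgeR, adjusted p = 2.39e-05) and -1.04 ± 0.13 in the libraries labelled KO+CFLAR (edgeR, adjusted p = 3.01e-05). LINC00621 was at 0.949 to 1.53 CPM in the knockout, 3.41 and 2.39 CPM in KO+STAMBP, 3.64 and 3.5 CPM in the libraries labelled KO+CFLAR, and 4.85 and 5.08 CPM in WT.

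**Figure D2:**
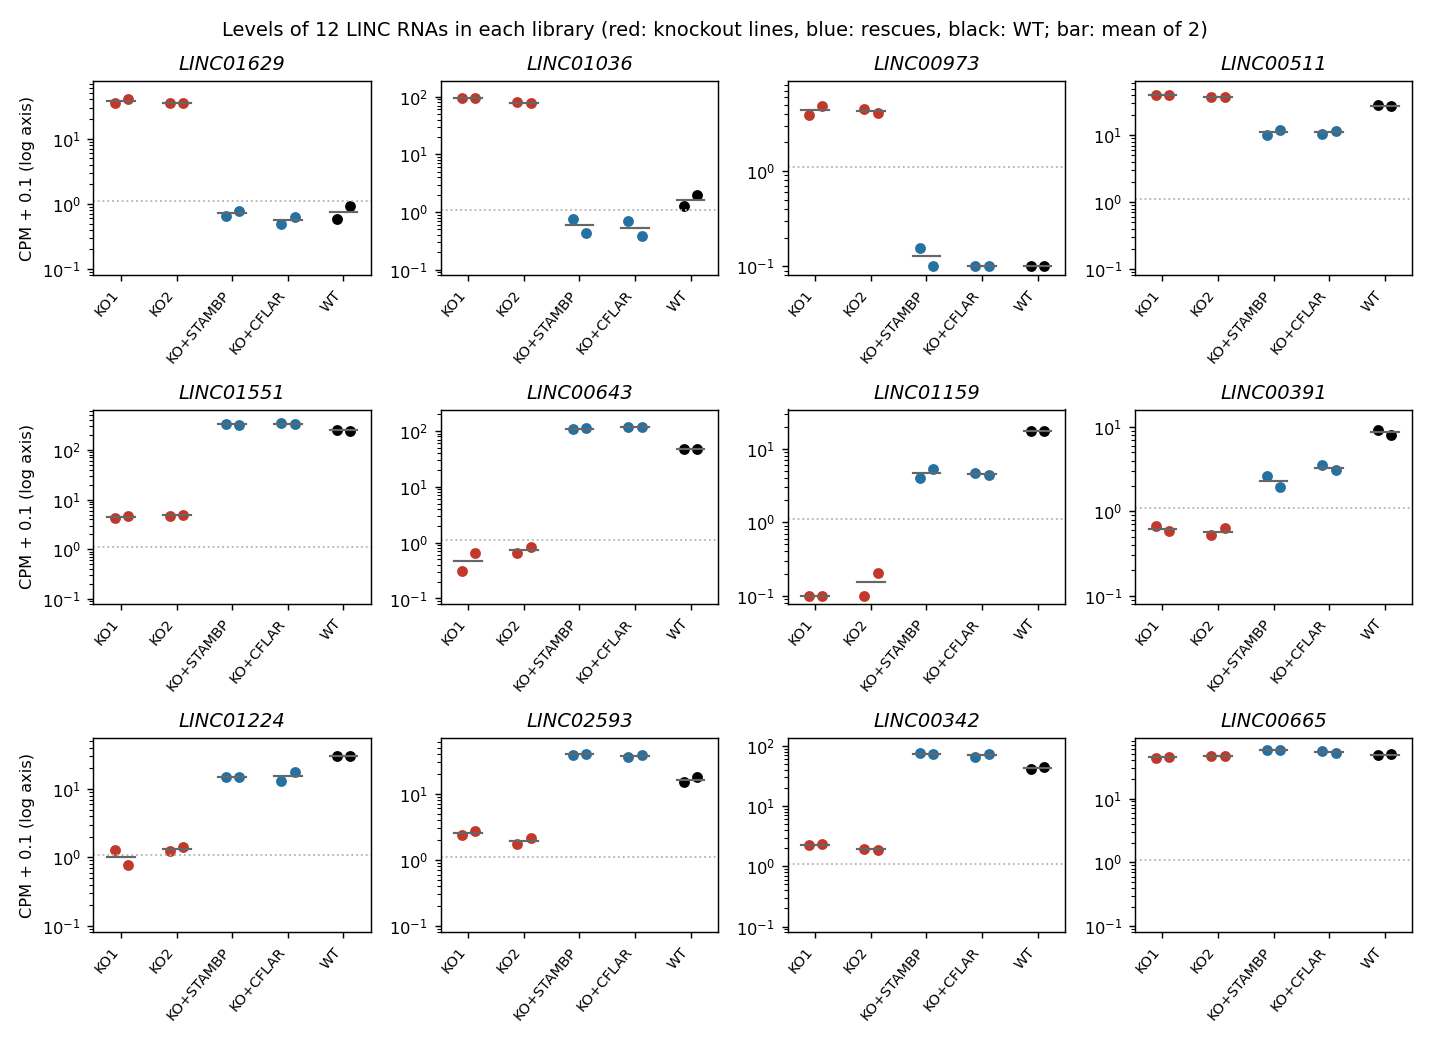
CPM + 0.1 (log axis) of 12 LINC RNAs in each library of the 5 groups; points are libraries, bars are the means of 2 libraries, and the dotted line is the level of 1 CPM that the choice of members used. LINC01629, LINC01036 and LINC00973 sit high in the knockout lines alone, LINC01551 and LINC00643 are higher in the rescues than in WT, and LINC01159, LINC00391 and LINC01224 lie between the knockout and WT in the rescues.

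Among the members present in all 5 groups, the most abundant after LINC01551 were also lower in the knockout than in WT. LINC00641 was at 83.6 to 89.2 CPM in the 4 knockout libraries, 189 to 204 CPM in the 4 rescue libraries and 145 and 146 CPM in WT, and fell by 0.57 ± 0.03 in the knockout against WT (edgeR, adjusted p = 1.37e-09). LINC00205 was at 34.7 to 37.4 CPM in the knockout, 112 to 120 CPM in the rescues and 82.4 and 84.5 CPM in WT, a fall of 1.03 ± 0.04 in the knockout (edgeR, adjusted p = 1.23e-11). LINC00667 averaged 41.9 ± 1.39 CPM in the knockout and 103 ± 3.31 CPM in WT, and fell by 1.12 ± 0.04 (edgeR, adjusted p = 5.78e-12); its exons share bases with genes on the other strand. LINC01963 averaged 13.6 ± 0.243 CPM in the knockout and 59.5 ± 6.23 CPM in WT, and fell by 1.96 ± 0.08 (edgeR, adjusted p = 9.49e-12). The largest fall after LINC01551 was that of LINC00342, at 1.79 to 2.23 CPM in the knockout, 64.5 to 75.1 CPM in the rescues and 40.9 and 43.8 CPM in WT, lower in the knockout by 4.24 ± 0.10 (edgeR, adjusted p = 2.58e-14); near-identical transcripts elsewhere on the genome make its value uncertain.

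LINC02593 (chr1:916865-921016, minus strand) was at 1.64 to 2.59 CPM in the knockout, 38.6 and 39.7 CPM in KO+STAMBP, 36.2 and 37.9 CPM in the libraries labelled KO+CFLAR, and 14.9 and 17.6 CPM in WT. It fell by 2.77 ± 0.12 in the knockout (edgeR, adjusted p = 1.96e-11), and KO+STAMBP was above WT by 1.22 ± 0.09 (edgeR, adjusted p = 1.58e-07). LINC00632, whose locus on chromosome X also gives the circular RNA antisense to CDR1, averaged 11.98 ± 0.914 CPM in the knockout and 49.995 ± 3.89 CPM in WT and fell by 1.88 ± 0.08 (edgeR, adjusted p = 2.11e-11). Linear and circular products of that locus and CDR1 itself are not separated in these counts. LINC00662 averaged 10.4 ± 0.619 CPM in the knockout, 35.2 ± 1.03 CPM in KO+STAMBP, 39.8 ± 1.01 CPM in the libraries labelled KO+CFLAR and 27.3 ± 0.0354 CPM in WT, and fell by 1.22 ± 0.07 in the knockout (edgeR, adjusted p = 1.09e-09).

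LINC00472 stood below WT in every other group. It was at 14.6 to 16.8 CPM in the knockout, 20.7 to 21.9 CPM in the rescues and 33.7 and 31.8 CPM in WT, lower than WT by 0.87 ± 0.07 in the knockout (edgeR, adjusted p = 1.76e-08), with a log2 difference of -0.62 ± 0.08 between KO+STAMBP and WT (edgeR, adjusted p = 1.76e-05). LINC00665 varied less between the groups. It was at 43.1 and 45.3 CPM in KO1, 46.8 and 46.1 CPM in KO2, 58.3 and 56.7 CPM in KO+STAMBP, 56.5 and 50.8 CPM in the libraries labelled KO+CFLAR, and 47.8 and 49.7 CPM in WT, and its knockout to WT difference did not pass, at 0.07 ± 0.06 with TMM factors (edgeR, adjusted p = 0.272) and -0.11 with library size alone, the scale of these CPM values.

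All 282 members entered the model of all genes. In the knockout against WT, 72 were called higher and 122 lower (68.8% called), against a background of 76.2% called over all 21063 genes, 36.8% higher and 39.4% lower; nothing is read from the members' count, because a member seen in 1 group alone had to differ. The median log2 change was -0.31 over the members and -0.04 over all genes tested. Of the 123 members with at least 1 CPM in all the groups compared, 31 were higher, 41 lower and 51 not called, which is 58.5% called, with a median of 0.01. Without the members that have a near-identical copy, 22 of 104 were higher and 39 lower. Over the 398 LINC rows that the model tested, whatever their CPM, 88 were higher and 149 lower.

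Scaling touches these counts. Library size alone moves the median log2 change of all genes in the knockout against WT to -0.22, and the calls of all genes to 6646 higher and 9450 lower, against 7750 higher and 8305 lower with TMM factors. Among the named members, LINC00665 changed sign with library size alone, to -0.11 in the knockout against WT, and was not called on either scale.

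In KO+STAMBP against the knockout, 122 members were higher and 73 lower, against 77.9% called over all genes (40.1% higher, 37.8% lower); among the 123 members at 1 CPM or more in the groups compared, 47 were higher and 31 lower. For the libraries labelled KO+CFLAR against the knockout, 127 were higher and 70 lower, against 78.0% over all genes (40.0% higher, 38.0% lower), and 48 of 123 were higher and 29 lower in that subset. Both comparisons use the same knockout libraries as that of the knockout with WT. LINC01551, for example, was above the knockout by 5.93 ± 0.05 in KO+STAMBP (edgeR, adjusted p = 1.07e-18) and by 6.0 ± 0.05 in the libraries labelled KO+CFLAR (edgeR, adjusted p = 7.93e-19), and LINC00511 was below it by log2 differences of -2.04 ± 0.08 (edgeR, adjusted p = 6.67e-12) and -2.02 ± 0.08 (edgeR, adjusted p = 4.99e-12).

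The rescues were then set against WT. In KO+STAMBP, 33 were higher and 32 lower (23.0% called), against 34.9% called over all genes (16.4% higher, 18.5% lower). In the libraries labelled KO+CFLAR, 35 were higher and 25 lower (21.3%), against 33.7% over all genes (15.8% higher, 17.9% lower). Among members at 1 CPM or more in both groups, 28 of 180 were higher and 16 lower in KO+STAMBP, and 31 of 185 were higher and 14 lower in the libraries labelled KO+CFLAR. The number lower in KO+STAMBP fell when any KO+STAMBP or WT library was left out. The number lower in the libraries labelled KO+CFLAR fell without replicate 2 of that group. Each of these settings leaves 1 library in a group, and the number lower over all genes fell in each as well. Whether the fall was of the same size for the members and for all genes was not tested. DESeq2 called fewer members, 21 higher and 16 lower in KO+STAMBP and 19 higher and 14 lower in the libraries labelled KO+CFLAR. It also called fewer of all genes. In KO+STAMBP, 2347 genes were higher and 2887 lower, against 3452 and 3902 by edgeR. In the libraries labelled KO+CFLAR, 2247 genes were higher and 2778 lower, against 3325 and 3779 by edgeR. Over the 116 members of all 5 groups, the median ratio of a group's mean CPM to the WT mean was 0.85 in the knockout, 1.09 in KO+STAMBP and 1.11 in those labelled KO+CFLAR. CPM rests on library size alone, a scale on which the median log2 change of all genes in the knockout was -0.22. With TMM factors, the median log2 change of the 116 members against WT was -0.06 in the knockout, 0.09 in KO+STAMBP and 0.12 in those labelled KO+CFLAR, beside -0.04, 0.01 and 0.01 over all genes.

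**Figure D3:**
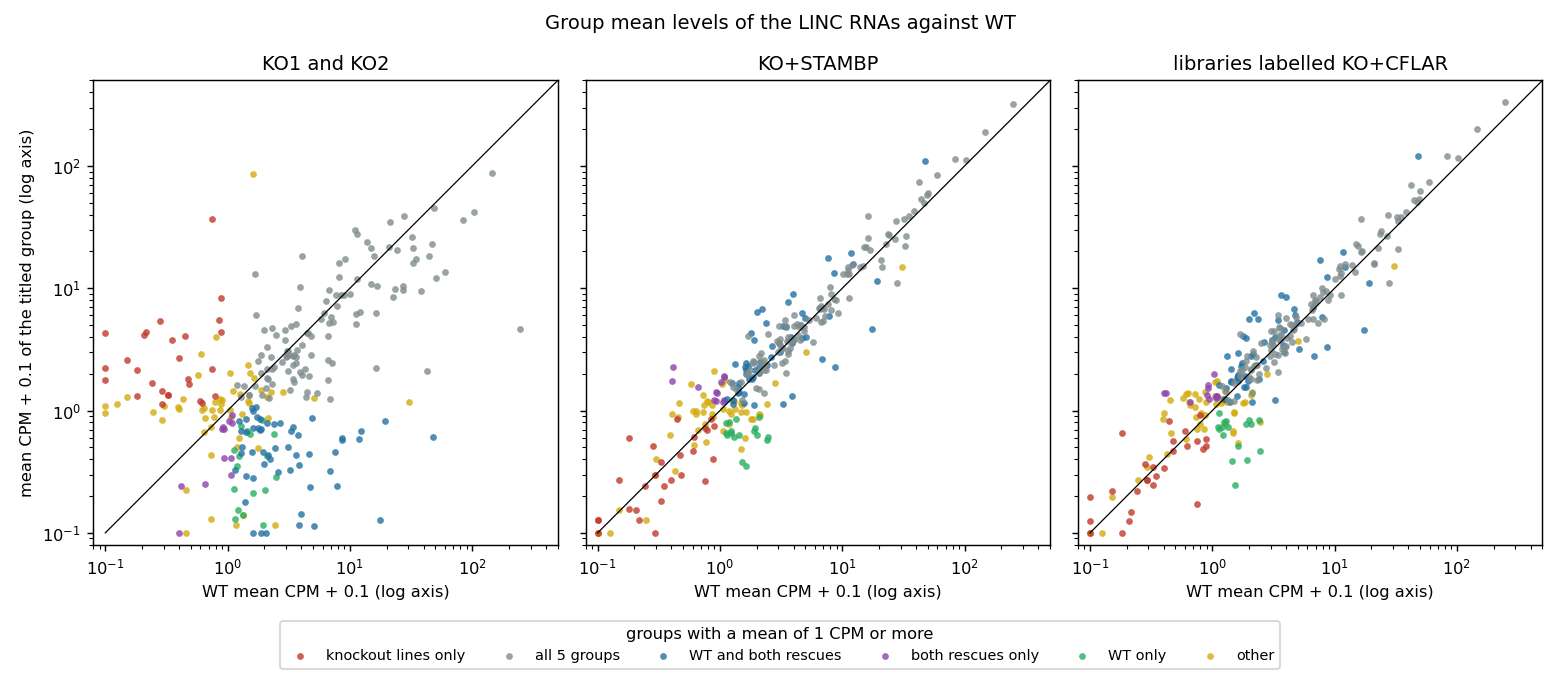
Group mean CPM + 0.1 of each LINC RNA (points, coloured by the groups in which its mean reached 1 CPM) against the WT mean CPM + 0.1, for the knockout lines, KO+STAMBP and the libraries labelled KO+CFLAR; both axes are logarithmic and the line marks equal levels. The 281 points, without the member on chromosome Y, scatter more widely for the knockout than for either rescue.

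The patterns with WT alone and with both rescues alone held low RNAs. Of the WT-only members, LINC00486 was at 0.0602 to 0.307 CPM in the knockout, 0.336 to 0.570 CPM in the rescues and 2.61 and 2.13 CPM in WT, and LINC00645 at 0 to 0.256 CPM in the knockout, 0.513 to 0.837 CPM in the rescues and 1.88 and 1.93 CPM in WT. LINC01091 averaged 0.329 ± 0.289 CPM in the knockout, 0.788 ± 0.336 CPM in KO+STAMBP and 1.99 ± 0.365 CPM in WT. LINC02552 averaged 0.541 ± 0.191 CPM in the knockout and 2.31 ± 0.757 CPM in WT. No WT-only member passed 2.37 CPM. Of the rescue-only members, LINC02389 was the clearest, at 0.105 to 0.182 CPM in the knockout, 2.04 and 2.34 CPM in KO+STAMBP, 1.23 and 1.34 CPM in the libraries labelled KO+CFLAR, and 0.121 and 0.508 CPM in WT. LINC01537, LINC02371 and LINC02558 averaged 1.62 ± 0.356, 1.80 ± 0.599 and 1.79 ± 0.114 CPM in KO+STAMBP and 0.927 ± 0.197, 0.973 ± 0.348 and 0.982 ± 0.240 CPM in WT, so that WT was just under the threshold.

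Between the 2 knockout lines, 0 of 282 members were called by edgeR at an adjusted p under 0.05, 12 had an unadjusted p under 0.05, and DESeq2 called 0; over all genes 0.157% were called (0.133% higher, 0.0237% lower). Between the libraries labelled KO+CFLAR and KO+STAMBP, 0 members were called by edgeR and 0 by DESeq2, 21 had an unadjusted p under 0.05, and 1.09% of all genes were called (0.627% higher, 0.461% lower).

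The nearest protein-coding gene, which the choice of members did not use, was identified by position for 280 members. The median distance was 23.7 kb; 169 lay within 50 kb and 31 overlapped the member. Of all 15697 protein-coding genes tested, 42.5% were higher and 40.5% lower in the knockout than in WT (edgeR, adjusted p under 0.05). Among the distinct neighbours of the knockout-only members, 15 of 26 were higher (57.7%) and 9 lower (34.6%). Among those of the members shared by WT and both rescues, 9 of 45 were higher (20.0%) and 31 lower (68.9%). Within 50 kb, the counts were 10 of 15 higher for the knockout-only members and 21 of 28 lower for the members shared by WT and both rescues. Without neighbours that overlap the member, both shares were smaller. They were 13 of 24 higher (54.2%) for the knockout-only members and 28 of 42 lower (66.7%) for the shared ones. For the members of all 5 groups, 34 of 87 neighbours were higher (39.1%) and 41 lower (47.1%), nearer to the background. Neighbours of other patterns also leaned lower, with 8 of 13 lower for WT-only members and 8 of 11 for rescue-only members. Over all members, 82 of 225 neighbours were higher (36.4%) and 116 lower (51.6%). The lean to lower was therefore not particular to the members shared by WT and both rescues.

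**Figure D4:**
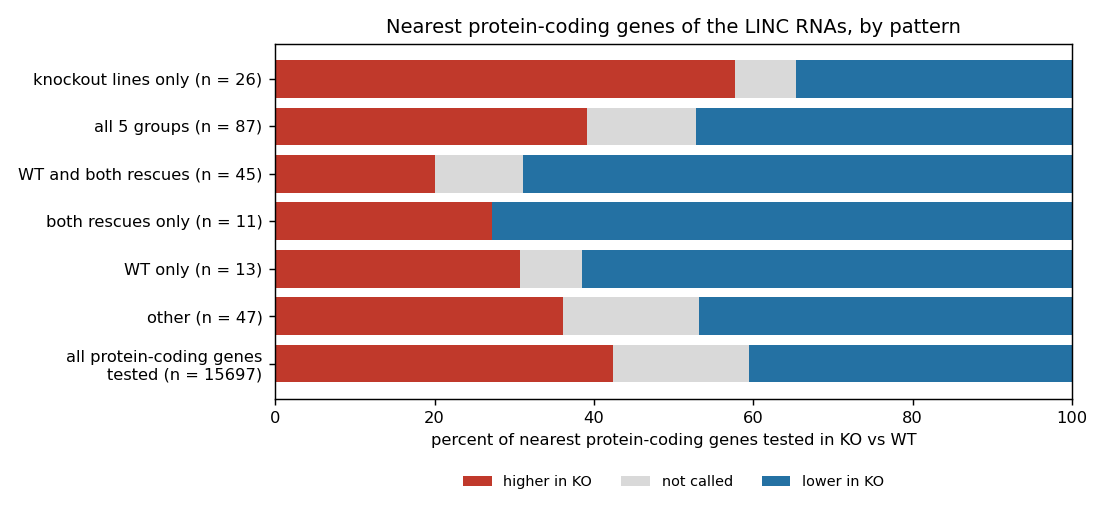
Share (percent) of the nearest protein-coding genes that were called higher (red), lower (blue) or neither (grey) in the knockout against WT, for each pattern of LINC RNAs, with all protein-coding genes tested in the lowest bar. Of the neighbours of knockout-only members 57.7% were higher, and of those of the members shared by WT and both rescues 68.9% were lower.

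POU3F3, 6.92 kb from LINC01159 on the other strand, averaged 0.783 ± 0.257 CPM in the knockout, 268 CPM in KO+STAMBP, 301 CPM in the libraries labelled KO+CFLAR and 442 ± 3.70 CPM in WT, and fell by 8.94 ± 0.07 (edgeR, adjusted p = 4.36e-19). SOX21, 6.76 kb from LINC00391, averaged 2.22 ± 0.595 CPM in the knockout, 26.3 CPM in KO+STAMBP, 30.3 CPM in the libraries labelled KO+CFLAR and 79.4 ± 3.43 CPM in WT, and fell by 4.99 ± 0.09 (edgeR, adjusted p = 1.58e-15). In the rescue means, POU3F3 and LINC01159, and SOX21 and LINC00391, lay between the knockout and WT. SALL3, a zinc-finger transcription factor 1.201 kb from LINC01896, fell by 4.17 ± 0.07 (edgeR, adjusted p = 8.89e-16), and NFIA, a transcription factor of glial development 225 kb from LINC01748, fell by 5.31 ± 0.07 (edgeR, adjusted p = 6.29e-17).

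Neighbours of RNAs that were high in the knockout went both ways. PLA2G4A, a cytosolic phospholipase A2, lies 81.7 kb from LINC01036, averaged 17.0 ± 0.707 CPM in the knockout and 1.2 ± 0.32 CPM in WT, and rose by 3.97 ± 0.17 (edgeR, adjusted p = 1.96e-11). DCBLD2, a transmembrane protein gene 79.4 kb from LINC00973, averaged 722 ± 9.02 CPM in the knockout and 125 ± 4.15 CPM in WT and rose by 2.71 ± 0.05 (edgeR, adjusted p = 6.43e-16). CDYL, a chromodomain protein gene 210 kb from LINC02533, rose by 2.51 ± 0.05 (edgeR, adjusted p = 6.51e-15). IRF2BPL, 58.7 kb from LINC01629, went the other way: it averaged 101 ± 6.03 CPM in the knockout and 286 ± 6.91 CPM in WT and fell by 1.33 ± 0.04 (edgeR, adjusted p = 1.14e-12). FGF9, a growth factor gene 336 kb from LINC00540, fell by 3.75 ± 0.14 (edgeR, adjusted p = 4.64e-12). Next to LINC00928, which had no knockout count, RHCG, an ammonium transporter gene of epithelia, averaged 6.64 ± 1.18 CPM in the knockout and 0.162 ± 0.0580 CPM in WT and rose by 5.43 ± 0.33 (edgeR, adjusted p = 1.13e-09).

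Of the members, 182 matched a promoter window in the RefSeq table by symbol. The AP-1 letters stood in 5 of 18 windows of knockout-only members (27.8%), 5 of 39 of members shared by WT and both rescues (12.8%), 26 of 182 of all members (14.3%) and 7.76% of the 27305 windows of the table. The SOX letters stood in 5 of 18 knockout-only windows, 17 of 39 shared ones (43.6%) and 35.8% of the table. The E-box letters stood in 8 of 18, 18 of 39 (46.2%) and 49.9% of the same sets. In the same order, the TEAD letters stood in 2 of 18 (11.1%), 2 of 39 (5.13%) and 14.05%. The POU octamer stood in 0 of 18, 1 of 39 and 1.80%. The TATA box letters (TATAAA) stood in 3 of 18 (16.7%), 5 of 39 (12.8%) and 11.95%. These were the 6 motifs searched, and differences between the sets were not tested. The median number of CpG dinucleotides per window was 4 for knockout-only members, 14 for members shared by WT and both rescues, 7 for all members and 14 for the table. These are matches of letters in 300 bases, with 18 windows in the smaller set.

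As background for the LINC RNAs, 25 other long noncoding RNAs with known roles were listed. Of the 24 tested, 15 were higher and 7 lower in the knockout than in WT. Over all genes, 36.8% were higher and 39.4% lower. NEAT1, the scaffold of nuclear paraspeckles, averaged 658 CPM in the knockout and 28.9 CPM in WT and rose by 4.69 ± 0.04 (edgeR, adjusted p = 7.96e-19), and MIAT, an RNA of the nervous system, averaged 96.7 CPM in the knockout and 470.4 CPM in WT and fell by 2.10 ± 0.05 (edgeR, adjusted p = 1.13e-14). In KO+STAMBP against WT, 13 of these RNAs were higher and 2 lower, and in the libraries labelled KO+CFLAR 8 were higher and 3 lower. Over all genes, the shares were 16.4% higher and 18.5% lower in KO+STAMBP. They were 15.8% and 17.9% in the libraries labelled KO+CFLAR. The list was short and chosen by name, so nothing is read from its counts.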

How the data were processed

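RNA sequencing of 10 libraries was analysed. Per the labels' protocols, 1 µg of total RNA taken up in Trizol entered an Illumina TruSeq preparation. The authors deposited raw counts as whole numbers, 1 row per gene and 60898 rows in all. The tools fastp 0.20.0, RSEM 1.2.4 and DESeq2, and hg38 and GRCh38 as builds, stand in the submitters' processing notes without a stated role; the annotation release and the strand setting are not given in the sources used here. RSEM gives estimated counts, and a rounding step before deposit is not recorded. Of the members, 57 are on rows with a locus name of the MSTRG kind, which may merge transcripts, and 2 rows carry the same symbol.

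CPM is the count divided by the library total. The counts went into edgeR 4.0.16 (R 4.3.3) and its quasi-likelihood test, with TMM factors, filterByExpr, a mean per group, all 10 libraries and 5 residual degrees of freedom; KO1 and KO2 had equal weight in KO. The calling threshold was 0.05 for p-values adjusted by Benjamini-Hochberg over 21063 genes. SE is the size of the log2 change divided by the root of F. The fit was checked on simulated counts with 1 fixed dispersion, in which few genes changed. That check does not cover a comparison in which most genes are called, such as the knockout against WT. A member's own test is printed only where every group compared reached 1 CPM, since levels chose the members. Intervals and floors cover counting error only.

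Positions come from GENCODE release 29, which held 280 members. A near-identical copy is a transcript of another locus at 97% identity or more over at least 50% of the length (blastn 2.17.0); 26 members have one, and 84 share exon bases with another gene. Promoter windows come from RefSeq. Replicate libraries differed by more than sampling noise (chi-square per gene 1.93 to 3.39). The members and lists were chosen with earlier results of these data known. The text names the highest members of each pattern, the largest changes in KO against WT and in each rescue against WT, members with a known background, those next to the threshold, and their neighbours. Alternatives were DESeq2 1.42.0, other factors, other filters, a replicate block, only the groups compared, each line alone, each library left out, other CPM thresholds and other neighbour sets; leaving out the libraries labelled KO+CFLAR was chosen after seeing the data. A member on chromosome Y is counted but not printed, and 1 neighbouring gene is not reported here.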

Additional observations from a re-analysis of the deposited data

How the results depend on the processing

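Counts of called members in the knockout comparisons kept within 1.5 times of the printed values under DESeq2, both other scalings, no filter on low counts, only the groups compared and either knockout line alone. Requiring at least 50 counts in at least 2 libraries left 151 members, and fewer calls by construction: 43 higher and 75 lower for KO against WT, 79 and 44 for KO+STAMBP against KO, 81 and 42 for the libraries labelled KO+CFLAR against KO, 15 lower for KO+STAMBP against WT and 14 lower for the libraries labelled KO+CFLAR against WT. DESeq2 gave 21 higher and 16 lower for KO+STAMBP against WT, and 19 and 14 for the libraries labelled KO+CFLAR against WT. It also called fewer of all genes in both comparisons, and the cause was not tested. Without a filter, 1 member was higher in KO1 against KO2, and 2 were higher with the libraries labelled KO+CFLAR set against KO+STAMBP.

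Leaving out each library in turn gave 62 to 73 higher and 106 to 123 lower for KO against WT, 104 to 122 and 61 to 73 for KO+STAMBP against KO, 109 to 126 and 59 to 67 for the libraries labelled KO+CFLAR against KO, 22 to 34 and 18 to 32 for KO+STAMBP against WT, and 24 to 37 and 16 to 27 for the libraries labelled KO+CFLAR against WT. It gave 0 calls between KO1 and KO2, and 0 to 1 higher and 0 lower between the rescues, the 1 call without replicate 2 of the libraries labelled KO+CFLAR. The number of members ranged from 281 to 287, with 113 to 118 in all 5 groups, 50 to 57 in WT and both rescues, 25 to 29 in the knockout lines alone, 10 to 13 in both rescues alone, 16 to 21 in WT alone and 53 to 66 with another combination. A threshold of 0.5 CPM gave 422 members, 177 in all 5 groups and 115 with another combination, and 2 CPM gave 181 members, 6 in WT alone and 26 with another combination.

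Same-numbered libraries of different groups correlated at -0.00418 to 0.0753 in their deviations from the group means. Counting noise enters these deviations, so low values do not decide whether the numbers pair the libraries. Over all genes, the replicate block moved the calls for the libraries labelled KO+CFLAR against KO+STAMBP. They went from 132 higher and 97 lower to 177 higher and 124 lower. With the replicate block, 73 members were higher and 122 lower for KO against WT, 123 and 73 for KO+STAMBP against KO, 124 and 69 for the libraries labelled KO+CFLAR against KO, 33 and 31 for KO+STAMBP against WT and 33 and 25 for the libraries labelled KO+CFLAR against WT. Without the libraries labelled KO+CFLAR, a setting chosen after seeing the data, the counts were 73 and 123 for KO against WT, 120 and 74 for KO+STAMBP against KO and 33 and 32 for KO+STAMBP against WT. Of 1658 values of named members under the alternatives, 1594 stayed on their side of the threshold, 61 lost the call, 3 gained it and no called value changed direction. Uncalled values near 0 did for LINC00665 in KO against WT (-0.11 with library size alone), for LINC00665 in the libraries labelled KO+CFLAR against KO (-0.03 without replicate 1 of those libraries, -0.00209 with KO2 alone) and for LINC00928 in KO+STAMBP against WT (-0.06 without KO+STAMBP replicate 1, -0.09 without WT replicate 1). Depth limits the members under 2 CPM, where a group mean rests on low counts.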

Other observations

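POU3F3 was also the nearest protein-coding gene of LINC01102 and LINC01114, chosen after their values were seen. LINC01102 averaged 0.140 ± 0.126 CPM in the knockout (SD, n = 4), 5.78 ± 0.855 CPM in KO+STAMBP, 5.70 ± 0.758 CPM in the libraries labelled KO+CFLAR and 7.71 ± 0.446 CPM in WT (SD, n = 2 each). LINC01114 averaged 0.0152 ± 0.0303 CPM in the knockout, 1.21 ± 0.149 CPM in KO+STAMBP, 2.91 ± 0.361 CPM in the libraries labelled KO+CFLAR and 3.75 ± 0.667 CPM in WT. Both were nearly absent from the knockout, as was LINC01159.

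LINC01088 and LINC01145, also chosen after their values were seen, had the largest rises in the knockout after LINC01036 among members at 1 CPM or more in all the groups compared. LINC01088 averaged 13.04 ± 0.667 CPM in the knockout, 3.99 ± 0.891 CPM in KO+STAMBP, 4.10 ± 0.442 CPM in the libraries labelled KO+CFLAR and 1.59 ± 0.237 CPM in WT, a rise of 3.22 ± 0.18 in the knockout against WT (edgeR, adjusted p = 6.18e-10). LINC01145 averaged 18.3 ± 0.779 CPM in the knockout, 4.86 ± 1.07 CPM in KO+STAMBP, 3.28 ± 0.368 CPM in the libraries labelled KO+CFLAR and 3.93 ± 0.450 CPM in WT, a rise of 2.40 ± 0.14 (edgeR, adjusted p = 9.39e-10).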
